A study of Mus musculus with 5 samples.

Results

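The Cip/Kip and INK4 genes encode the inhibitors that bind cyclin-dependent kinases (CDKs) and hold cells back from division. The 7 genes were taken by symbol from the deposited values: the Cip/Kip genes Cdkn1a (p21), Cdkn1b (p27) and Cdkn1c (p57), and the INK4 genes Cdkn2a (p16, and p19Arf from another reading frame), Cdkn2b (p15), Cdkn2c (p18) and Cdkn2d (p19). All 7 were found among 22180 genes, each with 1 array feature that names that gene alone. The study asked how retinoic acid bears on the dormancy of hematopoietic stem cells (HSCs), the marrow cells that renew the blood. From C57BL/6 mice, cells of the stem and progenitor compartment were kept in culture for 24 h with 5 µM all-trans retinoic acid (ATRA), the ligand of the retinoic acid receptors, or with its solvent DMSO. HSCs were sorted by flow cytometry after the culture and measured on 5 arrays, 3 for DMSO and 2 for ATRA. Uncultured HSCs were not analysed here, age and sex are not given in the labels, and nothing there ties replicates to separate animals or cultures, so the p-values cover the spread among these samples alone, and that spread may be technical.

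INK4 proteins bind CDK4 and CDK6 and keep D cyclins from activating them, which leaves the retinoblastoma protein free to hold back E2F factors. Cip/Kip proteins bind a wider range of cyclin and CDK pairs, including those of CDK2. In HSCs p57 and p27 are known as keepers of quiescence, p18 as a brake on self-renewal, p21 as a target of p53, and the Cdkn2a locus as one that Polycomb proteins keep silent.

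Cdkn1a is read from more than 1 start site, and the bases upstream of both starts are shown because Cdkn1a had the largest difference of the 7 genes and p53 is its best known activator. Sequences are from RefSeq (GRCm38.p6), 5′ to 3′, plus strand, 250 bases that end at the base before the start. The first, at chr17:29090729-29090978, has in capitals a 20-base stretch that matches the p53 consensus site with 1 mismatch. The second, at chr17:29093519-29093768, has in capitals 2 GC boxes (GGGCGG, either strand), the motif of Sp1-type factors.
Cdkn1a upstream of the first start: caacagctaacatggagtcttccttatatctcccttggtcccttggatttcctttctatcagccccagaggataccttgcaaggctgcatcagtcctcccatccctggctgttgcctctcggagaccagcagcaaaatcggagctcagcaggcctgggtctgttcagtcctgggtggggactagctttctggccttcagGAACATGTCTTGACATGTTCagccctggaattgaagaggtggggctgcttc
Cdkn1a upstream of the second start: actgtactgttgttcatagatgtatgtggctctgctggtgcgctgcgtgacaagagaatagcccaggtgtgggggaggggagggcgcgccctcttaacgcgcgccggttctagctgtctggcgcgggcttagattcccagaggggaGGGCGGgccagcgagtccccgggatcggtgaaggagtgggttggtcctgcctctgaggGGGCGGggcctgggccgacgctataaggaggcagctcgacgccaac
The p53 consensus site with at most 1 mismatch was found in 25 of 32851 such windows of mouse genes (0.0761%), and a GC box in 32.7%. Of the 7 genes, 6 had 9 windows in the RefSeq table, all but Cdkn1c. GC boxes lay in 1 window each of Cdkn1a, Cdkn1b, Cdkn2a, Cdkn2c and Cdkn2d. The nuclear receptor core motif AGGTCA (either strand), which retinoic acid receptors share with other receptors, lay in 1 window of Cdkn2a and 1 of Cdkn2c and in 14% of all windows. Its direct repeats with 2 or 5 bases between (AGGTCANNAGGTCA and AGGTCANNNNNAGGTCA) lay in 3 windows each of all genes and in none of these 9. A match is a run of letters, and binding was not measured.

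The arrays differed in ways that touch every value below. The SD over all 41345 features was 1.96 to 1.97 in DMSO, 1.77 in ATRA replicate 1 and 1.49 in ATRA replicate 2, and genes with high DMSO values had lower values on both ATRA arrays. Each gene was therefore also set beside the 500 genes with the closest DMSO means, and refitted after each array's smooth trend on DMSO level was subtracted, which is called the trend-free fit here. Of all genes, 15.5% were lower and 6.48% higher with ATRA past a limma adjusted p of 0.05 (Benjamini-Hochberg over 22180 genes), that is 3428 and 1437 genes. With each array centred on its own median the split was 4542 lower and 560 higher, and the median gene moved from 0.16 to -0.11 on the log2 scale. In the trend-free fit 270 genes were lower and 392 higher, so that the excess of lower genes turned round, and the median gene was at -0.02. Both ATRA values lay below all DMSO values in 29.2% of genes and above them in 33%. No gene passed once any 1 DMSO array was left out (limma, 5907 to 6065 genes at an unadjusted p under 0.05). The exact permutation test of 3 against 2 arrays cannot give a two-sided p below 0.1.

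Of the 7 inhibitor genes, 2 fell with ATRA, Cdkn1a and Cdkn2d, 0 rose, and 5 did not pass the test (limma, the same 2 genes at an unadjusted p under 0.05). Among all genes 15.5% were lower and 6.48% higher. The median difference over the 7 genes was -0.06 on the log2 scale, against 0.16 over all genes. The 3 Cip/Kip genes had differences from -2.47 to -0.06, and the 4 INK4 genes from -1.14 to 0.30. Both ATRA values lay below all DMSO values in 2 of the 7 genes (29.2% of all genes) and above them in 1, Cdkn2a (33% of all genes). In the other 4 the ATRA values did not both lie on 1 side of the DMSO values.

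**Figure D1:**
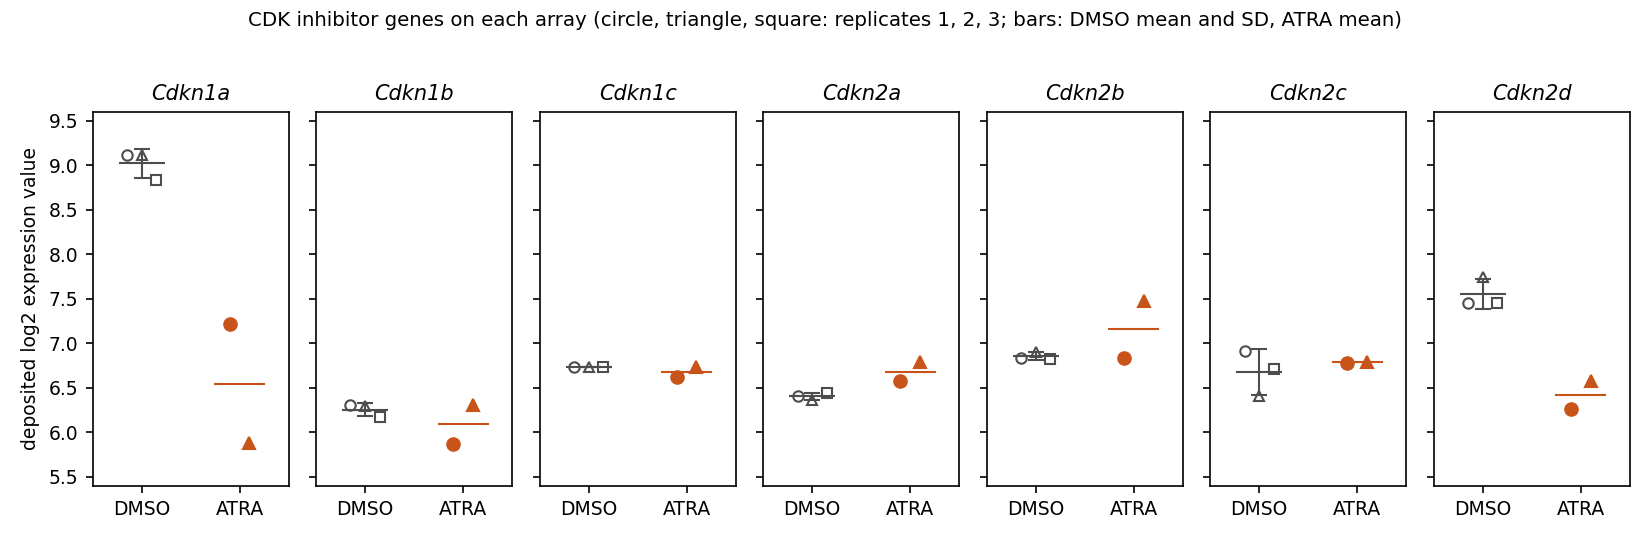
Deposited log2 expression values (vertical axis) of the 7 genes on the 3 DMSO arrays (open grey) and the 2 ATRA arrays (filled orange), with the DMSO mean and SD and the ATRA mean as bars. Cdkn1a and Cdkn2d lie lower on both ATRA arrays, while Cdkn1b, Cdkn1c, Cdkn2b and Cdkn2c overlap between the groups.

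Cdkn1a encodes p21, which binds CDK2 complexes and the replication clamp PCNA. Its log2 values were 9.12, 9.11 and 8.83 on the DMSO arrays and 7.21 and 5.88 on ATRA replicates 1 and 2. Both ATRA values lay well below the 3 DMSO values, and they were 1.33 apart from each other, against a DMSO range of 0.29. The mean fell by 2.47 (SE 0.43, 95% interval -3.61 to -1.34, limma adjusted p = 0.0253), which is 5.56-fold lower, with 3.51-fold in replicate 1 and 8.81-fold in replicate 2. The 500 genes of closest DMSO level (8.89 to 9.15) had a median difference of -1.75, 282 of them (56.4%) were lower past the threshold, and 12.8% had a more negative difference than Cdkn1a. In the trend-free fit Cdkn1a differed by -0.86 (SE 0.17, 95% interval -1.28 to -0.44, limma adjusted p = 0.0644). The call was also lost without DMSO replicate 1, 2 or 3 (adjusted p = 0.119, 0.113 and 0.107), and after repeated quantile normalization (adjusted p = 0.0706).

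Cdkn1b encodes p27, the inhibitor of CDK2 whose protein level is set largely by breakdown. Its values were 6.30, 6.29 and 6.17 in DMSO and 5.87 and 6.31 in ATRA, so that replicate 1 lay below the DMSO arrays and replicate 2 just above them. The difference was -0.17 (95% interval -0.63 to 0.30, limma adjusted p = 0.459), an interval that holds falls of up to 1.55-fold and rises of up to 1.23-fold. The closest genes by level had a median difference of 0.26, and 11.6% of them lay lower than Cdkn1b. With the trend on level removed the difference was -0.44 (95% interval -0.81 to -0.07, adjusted p = 0.17). It was 0.05 when ATRA replicate 1 was left out, and -0.44 after median centring (adjusted p = 0.139).

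Cdkn1c encodes p57, the Cip/Kip protein most closely tied to quiescent HSCs. Its value was 6.74 on 4 of the 5 arrays, identical to the last deposited digit, and 6.62 on ATRA replicate 1. The difference of -0.06 (95% interval -0.35 to 0.23, limma adjusted p = 0.67) therefore rests on 1 array. After each array was centred on its median, which moves every array, the difference was -0.33 (95% interval -0.66 to 0.00074, adjusted p = 0.133). Such identical values were common in the table. At least 2 arrays shared a value in 38.6% of all features and in 47.8% of genes, and at least 4 did so in 4.03% of genes. The DMSO SD of this gene was 0, so its error comes from the other genes through the limma prior and from the ATRA arrays.

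Among the INK4 genes, Cdkn2d fell. It encodes p19Ink4d, an inhibitor of CDK4 and CDK6. Its values were 7.46, 7.75 and 7.46 in DMSO, replicates 1 and 3 identical, and 6.26 and 6.58 in ATRA. The groups did not overlap, and the ATRA arrays were 0.32 apart, close to the DMSO range of 0.30. The mean fell by 1.14 (SE 0.18, 95% interval -1.60 to -0.67, limma adjusted p = 0.02), which is 2.20-fold lower. Of the 500 genes of closest level, 154 (30.8%) were lower past the threshold, their median difference was -0.75, and 23.2% had a more negative difference than Cdkn2d. Replicate 1 lay further below its level group than replicate 2 did: 11.8% of those genes were lower on replicate 1 and 46.4% on replicate 2. The trend-free difference was -0.53 (95% interval -1.14 to 0.07, adjusted p = 0.256). The call was lost without DMSO replicate 1, 2 or 3 (adjusted p = 0.0907, 0.0928 and 0.0984) and after cyclic loess normalization (adjusted p = 0.0674).

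Cdkn2a and Cdkn2b are neighbours on chromosome 4. The single Cdkn2a feature is named by gene only, so p16 and p19Arf transcripts, which share exons, could not be told apart. Cdkn2a was at 6.41, 6.36 and 6.44 in DMSO and at 6.57 and 6.79 in ATRA, both above all DMSO values, as in 33% of all genes. The difference of 0.28 (95% interval -0.06 to 0.61) did not pass (limma adjusted p = 0.172), and it was 0.01 after median centring. Genes of the same level had a median difference of 0.22, close to that of Cdkn2a. Cdkn2b, a gene known to respond to TGF-beta, was at 6.84, 6.91 and 6.83 in DMSO. On ATRA replicate 1 it was again 6.84, identical to DMSO replicate 1, and on replicate 2 it was 7.48. Its difference of 0.30 (95% interval -0.29 to 0.89, limma adjusted p = 0.313) thus came from replicate 2 alone, and it was 0.03 after median centring. On that array 90.0% of the genes of the same level lay below Cdkn2b, relative to their DMSO means, and 57.6% did so on replicate 1. Without ATRA replicate 1, where the variance of the single ATRA array is taken from the DMSO arrays, Cdkn2a differed by 0.38 and Cdkn2b by 0.62. Without ATRA replicate 2 the differences were 0.17 and -0.02.

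Cdkn2c encodes p18Ink4c. It had the widest spread of the 7 genes in DMSO, with values of 6.92, 6.40 and 6.72, and was at 6.78 and 6.79 in ATRA. Both ATRA values lay within the DMSO range. The difference was 0.11 (95% interval -0.40 to 0.61, limma adjusted p = 0.654), it was -0.03 without DMSO replicate 2 and -0.16 after median centring, and its sign is therefore not settled.

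**Figure D2:**
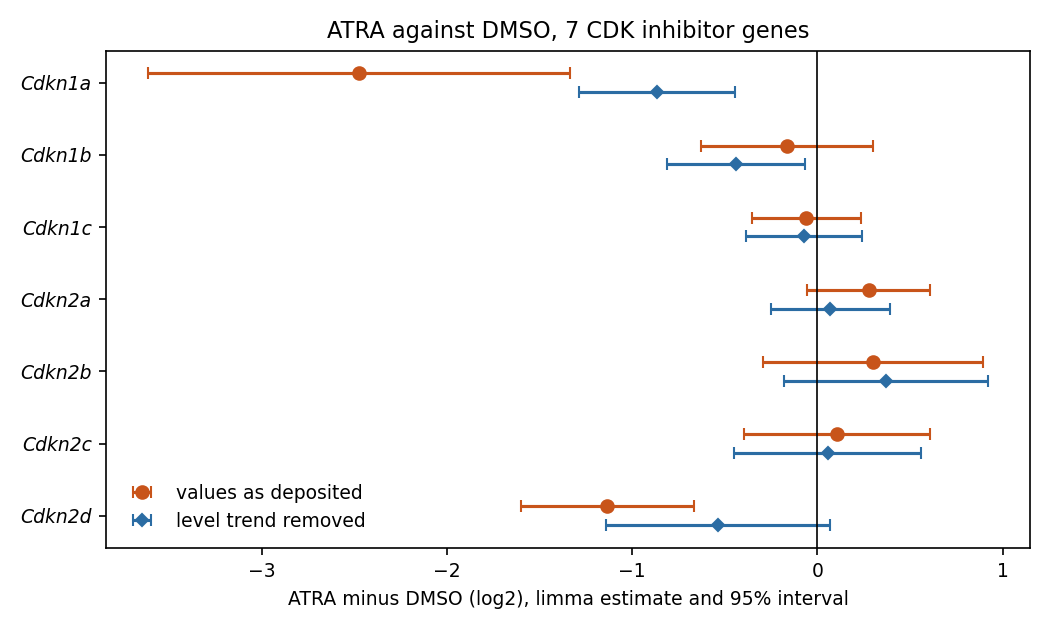
ATRA minus DMSO on the log2 scale (horizontal axis) for each gene, with the limma 95% interval, from the values as deposited (orange circles) and from the trend-free fit (blue diamonds). The intervals of Cdkn1a and Cdkn2d lie below 0 in the deposited values. In the trend-free fit the Cdkn1a estimate shrinks from -2.47 to -0.86 and that of Cdkn2d from -1.14 to -0.53. The trend-free intervals of Cdkn1a and Cdkn1b lie below 0 and that of Cdkn2d includes 0, but no gene shown passed the adjusted threshold there.

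The position of the genes in the whole table is seen from the DMSO level. On ATRA replicate 1, genes at the level of Cdkn1a differed from DMSO by a median of -1.24 and Cdkn1a by -1.81, and on replicate 2 they differed by -2.22 and Cdkn1a by -3.14. At the level of Cdkn2d the medians were -0.53 and -0.90, and Cdkn2d differed by -1.29 and -0.98. The other 5 genes had DMSO means between 6.25 and 6.86, where the median difference of their level groups ran from -0.15 to 0.26 and between 1.2% and 7.4% of genes were lower past the threshold. The median over all features and arrays was 6.03, and how near these 5 genes lay to background was not tested.

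**Figure D3:**
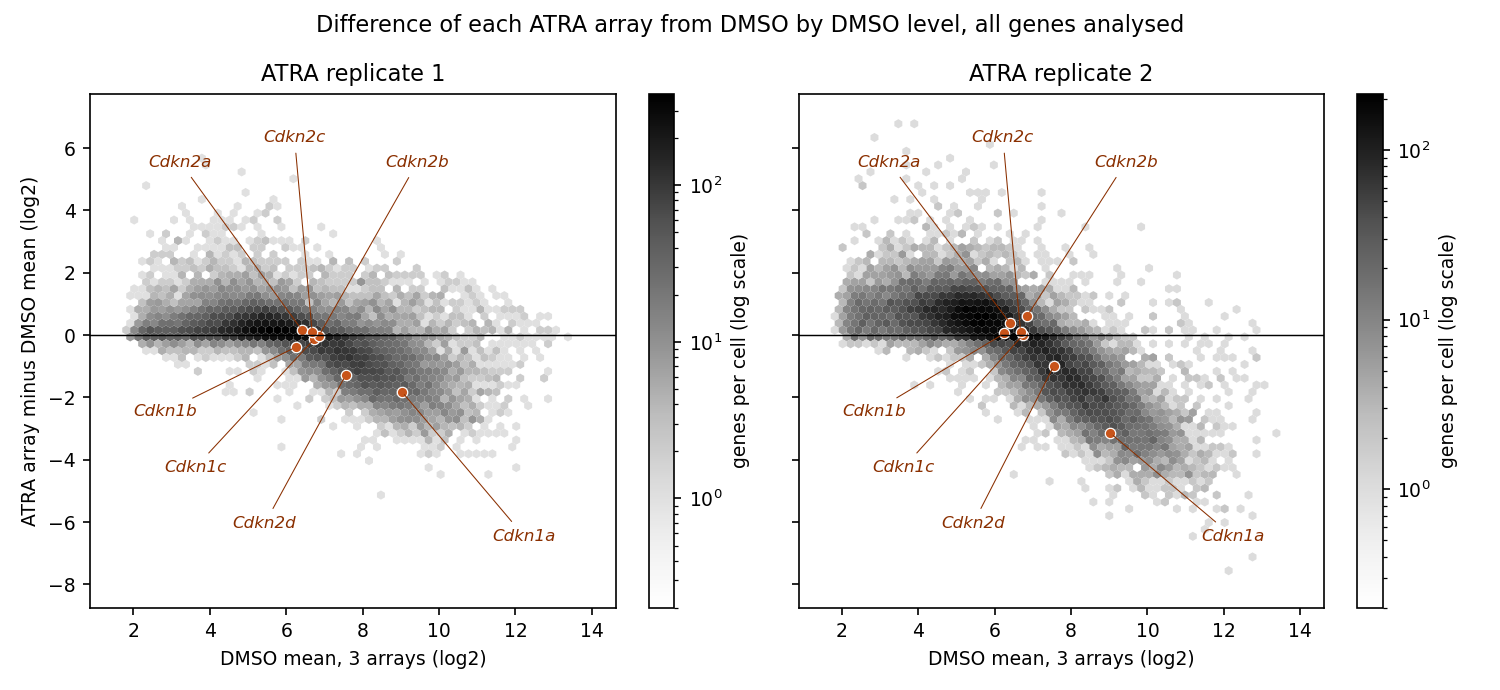
Each panel plots 1 ATRA array minus the DMSO mean (vertical axis, log2) against the DMSO mean of 3 arrays (horizontal axis, log2) for all 22180 genes as a grey density, with the 7 inhibitor genes in orange. Cdkn1a and Cdkn2d sit on the descending part of both clouds, steeper on replicate 2, and the other 5 lie near the point where the clouds cross 0.

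By pattern over the 5 arrays, measured as the root mean square difference of values centred on each gene's mean, the genes most like Cdkn1a were Mis18a (0.0408), Trap1 (0.0582) and Arl3 (0.0684). In all, 165 named genes lay within 0.2 of Cdkn1a. Those most like Cdkn2d were Flot2 (0.0301), Dgkd (0.0445) and Usf2 (0.0518), with 372 genes within 0.2. The other inhibitor genes had far more neighbours, from 1767 for Cdkn2c to 5047 for Cdkn2a. The nearest were Pik3r5, Myom1 and Zfp169 for Cdkn1b, C1ra, Ntn3 and Abcc10 for Cdkn1c, Zfp879, Pate2 and Lurap1l for Cdkn2a, Olfr1257, Ier5 and Txlnb for Cdkn2b, and Zfp980, Unc13b and Zcwpw1 for Cdkn2c. The pair of Cdkn1a and Cdkn2d, the 2 genes that fell, was 0.844 apart.

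The kinases and cyclins that these inhibitors bind included genes that fell. Of 5 D cyclin and CDK4/6 genes, 4 fell, 0 rose and 1 did not pass, with a median of -3.39, or -0.78 in the trend-free fit. Their mean DMSO value was 10.04 to 10.20 by array, so the 15.5% lower among all genes is not the share at their level, and at the lower level of Cdkn1a it was already 56.4%. Cyclin D1 (Ccnd1), the partner of CDK4 and CDK6, was at 8.91, 9.29 and 8.91 in DMSO and at 7.10 and 7.10 in ATRA (-1.93, limma adjusted p = 0.00771). Ccnd3 differed by -2.08, Ccnd2 by -3.58 and Cdk6 by -3.90, all past the threshold. Cdk4, named here after its values were seen, was at 9.39 and 6.12 in ATRA against 11.13 to 11.17 in DMSO (-3.39, adjusted p = 0.0765). Of 6 measured genes for cyclins E, A and B with CDK2 and CDK1, only Cdk2 fell (-1.75, adjusted p = 0.00714), 0 rose and 5 did not pass (median -1.48, trend-free -0.06). In the trend-free fit Ccnd2 alone of these genes passed (-1.10, adjusted p = 0.044) and Cdk2 differed by 0.08. Of the 13 pocket protein, E2F and DP genes, 6 fell, 0 rose and 7 did not pass (median -1.27, trend-free -0.24). They included the retinoblastoma gene Rb1 (-2.26), its relative Rbl2 (-1.17, and 0.07 trend-free), and E2f4 (-3.17) and E2f8 (-2.43), both repressive E2F factors. Rbl1, which also fell and was named after its values were seen, was the only one of the 13 to pass in the trend-free fit (-0.88, adjusted p = 0.0422). The cyclin E, A and B list had mean DMSO values of 8.61 to 8.75 by array, and the pocket protein list 8.63 to 8.72. Both lie below the level group of Cdkn1a (8.89 to 9.15), where 56.4% of genes were lower. They lie above that of Cdkn2d (7.48 to 7.62), where 30.8% were lower. Whether the 3 lists departed from genes of their own level was not tested. Without any 1 DMSO array none of the calls in these lists stood. Without ATRA replicate 1 the lower counts were 5, 5 and 11 for the 3 lists and the higher counts 0, 1 and 0. Without replicate 2 the lower counts were 5, 2 and 8 and the higher counts 0, 0 and 1.

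Genes known to act on the inhibitors were read from 4 further lists. Among all genes 15.5% were lower and 6.48% higher, but these are not the shares at the level of each list. The mean DMSO values of the protein turnover genes lay within the level group of Cdkn1a (8.89 to 9.15), where 56.4% of genes were lower. Those of the p53 targets were 6.48 to 6.61, and at the levels of Cdkn1b and Cdkn2b 1.2% and 7.4% of genes were lower. The Cip/Kip transcription regulators had mean DMSO values of 7.36 to 7.38, and the INK4 locus regulators 7.46 to 7.47. Just above these, in the level group of Cdkn2d (7.48 to 7.62), 30.8% of genes were lower. Whether any list departed from genes of its own level was not tested. Of 15 measured regulators of Cip/Kip transcription, 5 fell, 0 rose and 10 did not pass (median -0.45, trend-free -0.16). Among them were Smad3 (-1.09) and Smad2 (-1.34), which carry TGF-beta signals, the receptor gene Tgfbr2 (-1.24), and Myc (-1.66), a repressor of Cdkn1a. The trend-free differences of Smad2 and Myc were 0.32 and 0.67. Of 18 measured p53 targets other than Cdkn1a, 2 fell, 1 rose and 15 did not pass. Their median was 0.05, and -0.32 in the trend-free fit, where Cdkn1a differed by -0.86. Those that fell were the death receptor gene Tnfrsf10b (-1.78, limma adjusted p = 0.00876) and the nuclease gene Aen (-0.74, adjusted p = 0.0218), and Plk2, a kinase gene, rose by 0.61 (adjusted p = 0.0495). Mdm2, the p53 antagonist and a classical p53 target named after its values were seen, was at 7.36 and 5.41 in ATRA against 7.37 to 7.43 in DMSO (adjusted p = 0.246). Of 15 regulators of the INK4 locus, mostly Polycomb genes, 0 passed (limma, 6 at an unadjusted p under 0.05, median -0.48, trend-free 0.04), while 3 passed as lower after median centring and 1, the Polycomb gene Eed, as higher in the trend-free fit (1.59). The smallest p-values there were those of Dmtf1 (-0.69, adjusted p = 0.0635) and Suz12 (-0.67, adjusted p = 0.0699, and 0.21 trend-free). Of 11 measured genes for the turnover of Cip/Kip proteins, 4 fell, 0 rose and 7 did not pass (median -1.83, trend-free -0.25). These were Ddb1 (-3.55) and Dtl (-3.57), parts of the ubiquitin ligase that marks p21, Rnf123 (-1.57), a ligase for p27, and Cops5 (-3.00), a signalosome subunit that acts on p27. Ddb1 and Cops5 passed in the trend-free fit too (-1.60, adjusted p = 0.0385, and -0.998, adjusted p = 0.0422). No call in these 4 lists stood without any 1 DMSO array. Without ATRA replicate 1 the lower counts, in the order given, were 7, 6, 8 and 11 and the higher counts 1, 2, 1 and 0. Without ATRA replicate 2 the lower counts were 8, 3, 4 and 7 and the higher counts 0, 1, 3 and 1.

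**Figure D4:**
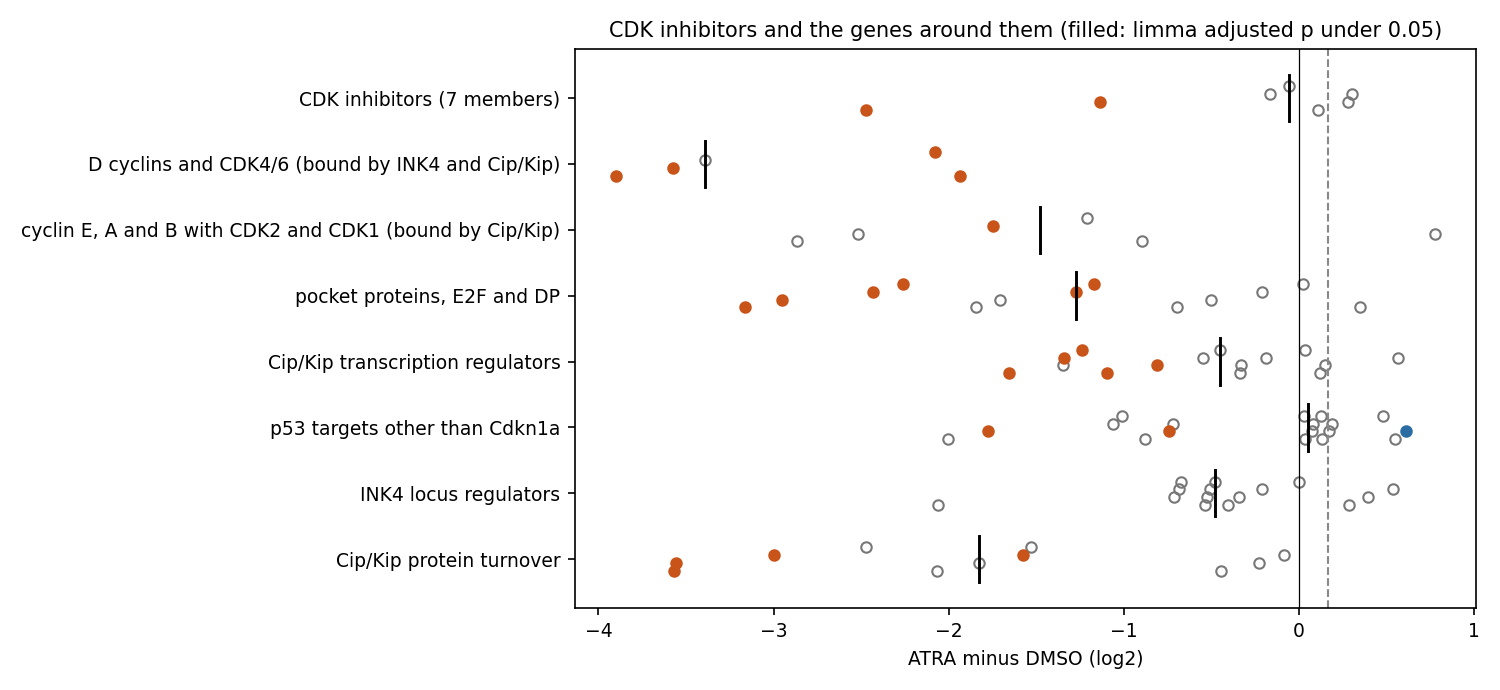
ATRA minus DMSO on the log2 scale (horizontal axis) for each gene of the 7 inhibitors and of the lists of genes around them, 1 row a list. Filled points passed a limma adjusted p of 0.05 (orange lower, blue higher), black bars are list medians and the dashed line is the median of all genes, 0.16. The D cyclin and CDK4/6 row lies furthest to the left, with a median of -3.39, while 5 of the 7 inhibitors lie between -0.17 and 0.30.

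Markers of the sorted cells moved with the same contrast. Of 13 HSC markers listed, 11 were measured, of which 6 fell and 0 rose. Among all genes 15.5% were lower, but that is not the share at the level of these markers. At the level of Cdkn1a (8.89 to 9.15), close to the mean DMSO value of the markers, it was 56.4%. The median difference of the markers was -1.37, and -0.57 in the trend-free fit. Their mean log2 value was 8.77 to 8.94 on the DMSO arrays, 7.74 on ATRA replicate 1 and 6.77 on replicate 2. Those that fell were Hlf, Kit, Gata2, Fgd5, Tek and Mecom, and none of them passed in the trend-free fit. Of 45 listed markers of erythroid, megakaryocyte, myeloid, B, T, NK, mast cell and basophil lineages, 38 were measured, of which 3 rose (S100a9, Ighm and Cd3g), 1 fell (Itga2b) and 34 did not pass, where 6.48% of all genes were higher. Their median was 0.34, and 0.06 in the trend-free fit, where Ighm kept its call and S100a9, Cd3g and Itga2b did not (adjusted p = 0.309 to 0.901). Their mean was 5.95 to 6.08 in DMSO and 6.30 and 6.32 in ATRA. These genes were named after their values were seen. Array values have no zero, so absence of a marker cannot be read from them, and fewer cells of a type and less RNA per cell cannot be told apart. The part of these shifts and of the level trend in the differences of the inhibitor genes was not tested.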

How the data were processed

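RNA of sorted HSCs was labelled with biotin and measured on arrays, 3 for DMSO and 2 for ATRA, with groups and replicate numbers from the sample titles. The authors deposited log2 expression values, 1 per feature and array. RMA, limma 3.28.20 and oligo 1.36.1 appear in the submitters' processing notes, without their roles. The build and annotation were not given in the sources used here. No filter on low values was applied to the deposited table. Amplification of small amounts of RNA, and a sort made after treatment, can both shape such values.

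Features were named through the platform table: 23521 of 41345 with 1 gene, 1814 with several and 16010 unnamed here. Of the former, 23328 matched GRCm38 gene identifiers. For genes with several features the one with the highest mean was used. ATRA was compared with DMSO in limma (version 3.58.1, R 4.3.3, lmFit and eBayes, 3 residual degrees of freedom, prior worth 1.52), two-sided, with Benjamini-Hochberg adjustment over 22180 genes and a threshold of 0.05. Every adjusted p comes from limma. The fit was tested on simulated data drawn with the same SD for every gene and both groups, which the real arrays need not share. The trend-free fit subtracts from each array a loess curve (span 0.3) of its difference from the DMSO mean on that mean. Differences on this scale compress those of dim features, and levels of different features were not compared. Genes named are the 7 inhibitors, 3 of most like pattern for each, and, from each list of related genes, those past the threshold (at most 4, by smallest p) or else the 2 with the smallest p. Other settings left out each array, blocked on replicate number, or changed the normalization, filter, variance model, array weights or feature choice. The members and lists were chosen with earlier results of these data known. Of 148 listed genes, 132 were measured under 1-gene features, and the others were not analysed here.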

Additional observations from a re-analysis of the deposited data

How the results depend on the processing

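Cdkn1a and Cdkn2d had negative differences in all 14 other settings. Both were called after median centring, where the differences were -2.74 and -1.41. They were also called with dim features left out, an intensity trend with robust prior, and averaged features. Those settings left the estimates at -2.47 and -1.14, and each gene has 1 feature to average. Without ATRA replicate 1 the differences were -3.14 and -0.98, and without ATRA replicate 2 they were -1.81 and -1.29. The variance of a single ATRA array is taken from the DMSO arrays there. The count of inhibitor genes called, 2 in the fit reported, was 1 after repeated quantile normalization (Cdkn2d) and 1 after cyclic loess normalization (Cdkn1a), and 0 with the level trend removed and with array weights. Leaving out any 1 DMSO array gave a count of 0. Over all genes the count of 4865 became 2182, 2275, 662 and 0 under those same 4 settings (with array weights, 4377 genes at an unadjusted p under 0.05 in limma), and from 0 to 14207 when 1 array was left out. With the replicate number as a block, 0 inhibitor genes and 0 genes in all passed (limma, 5412 at an unadjusted p under 0.05), and adjusted p was 0.143 for Cdkn1a and 0.149 for Cdkn2d. The labels do not say what the numbers share, so the numbers were not taken as pairs. Deviations of same-numbered arrays from their group means correlated at 0.0546 and 0.0466 over features. The deviations of the 2 ATRA arrays are mirror images of each other, so these correlations cannot decide whether the arrays are paired. Signs turned for Cdkn1b without ATRA replicate 1, for Cdkn2b without ATRA replicate 2, and for Cdkn2c without DMSO replicate 2 and after median centring (-0.16). Over the fits that left out 1 array, the differences ran from -0.385 to 0.053 for Cdkn1b, from -0.021 to 0.623 for Cdkn2b and from -0.031 to 0.226 for Cdkn2c. Settings for the related genes were added after seeing the data. There signs turned after cyclic loess normalization for Smad2 (0.055), Myc (0.20) and Suz12 (0.13), and with the level trend removed for these genes (0.32, 0.67 and 0.21), Cdk2 (0.084) and Rbl2 (0.072). The causes were not tested. Having 2 ATRA and 3 DMSO arrays limits the precision throughout.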
